A study of Mus musculus with 24 samples.

Results

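The genes described here are 10 genes of the Notch pathway, chosen by symbol: the ligands Dll1, Dll4, Jag1 and Jag2, the receptors Notch1, Notch2 and Notch4, and the target genes Hes1, Hey1 and Hey2. They are 10 of the 48820 gene entries in each of 4 count tables, and every one of them was found in all 4. The study asked how liver cells change when hepatic stellate cells (HSCs) stop making GDF2 (also called BMP9) and BMP10, circulating ligands that signal through the receptor ALK1 and through SMAD proteins. Bulk RNA-seq was run on sorted liver macrophages, on sorted liver endothelial cells (ECs) and on whole liver tissue of C57BL/6 mice. There were 24 libraries in 8 groups of 3.

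In Gdf2/Bmp10 HSC-KO mice (labelled Bmp9/10-HSC-KO) floxed Gdf2 and Bmp10 alleles were deleted by a Cre recombinase driven from Lrat, a gene of HSCs, so the cells sequenced here as macrophages and ECs were not the cells meant to lose the genes. Their controls were labelled control (BMP9/10 control for macrophages) by genotype and WT in the sample descriptions. In Smad4 cKO mice floxed Smad4 was deleted by Vav1-Cre, which acts in all blood-forming cells and not in macrophages alone, and their controls were labelled Smad4FF, the floxed allele. The gate for macrophages was CD45+, Ly6C-, F4/80+ and CD64+, and that for ECs CD45- and CD31+, with mice 8 to 10 weeks old, and livers came from mice 12 weeks old. The labels of 3 mice appear on both a macrophage and an EC library.

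Notch signaling passes between touching cells. A ligand of the Delta or Jagged family on 1 cell binds a Notch receptor on its neighbour, the receptor is cut by ADAM10 and then by gamma-secretase, and the freed intracellular domain joins the DNA-binding protein RBPJ to switch on genes such as the Hes and Hey repressors. In vessels, DLL4, JAG1, NOTCH1 and NOTCH4 are known for their part in arterial identity and sprouting, HEY1 and HEY2 are also responsive to BMP signals in ECs, and in the liver Notch ligands on sinusoidal ECs are known as part of the niche in which monocytes become Kupffer cells (KCs), the resident macrophages of the liver.

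Library totals ran from 60911527 to 110879155 counts, with a median of 85451301, so that 3 counts, taken here as the floor of detection, correspond to between 0.0258 and 0.0524 CPM, the count of a gene scaled to the same library size in all libraries. Floors cover counting error only, whereas the 95% intervals of fold changes given below come from edgeR and include the spread between libraries. The deleted genes followed the labels: Gdf2 stood at 9.38 to 22.5 CPM in control livers and 2.12 to 3.84 CPM in HSC-KO livers, Bmp10 at 1.99 to 3.28 CPM and 0.0938 to 0.262 CPM, and Smad4 at 35.2 to 42.8 CPM in Smad4FF macrophages and 12.6 to 17.2 CPM in Smad4 cKO macrophages. The sorted cells carried the markers of their labels, with the sum of 12 EC markers at 27037 to 28888 CPM in control ECs and the sum of 10 macrophage markers at 33890 to 35307 CPM in control macrophages. The labels number the libraries within a group, name no batch and give no more on how they were raised, so p-values measure the spread between these samples. Read from Xist, the transcript of the inactive X chromosome, the mix of sexes differed between control and HSC-KO groups of ECs and macrophages. Xist was at 21.5 CPM in control EC replicate 1 and at 25.4 and 42.7 CPM in HSC-KO EC replicates 1 and 3. It was at 21.1 CPM in control macrophage replicate 3 and at 75.5 and 87.2 CPM in HSC-KO macrophage replicates 2 and 3. The other libraries of these groups had none, and the Smad4 set held at most 0.0332 CPM.

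In control samples the Notch genes were divided between ECs and macrophages. Compared per length (CPM per kilobase of annotated exon, mean ± SD, n = 3), Dll4, a ligand of sprouting and arterial vessels, was the highest member in control ECs at 51.2 ± 18.2, and its lowest library still lay above every library of the next gene, the receptor Notch1 at 19.3 ± 0.277. Jag1 followed at 16.7 ± 2.91 and overlapped Notch1. Hes1 at 7.45 ± 1.37, the endothelial receptor Notch4 at 7.08 ± 1.93 and Dll1 at 4.78 ± 0.959 came next, each overlapping its neighbour. Notch2 at 1.81 ± 0.372 and Hey1 at 0.662 ± 0.279 were each apart from their neighbours. Jag2 stood at 0.0206 ± 0.0129, and Hey2 had no count in any of the 3 control EC libraries, where 3 counts in the shallowest of them would be 0.0485 CPM.

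In control macrophages the order was another one. Notch2 led at 29.8 ± 3.41 CPM per kilobase, with no overlap with the next genes, which were Hes1 at 2.85 ± 0.578, Notch1 at 2.19 ± 0.602 and Hey1 at 2.12 ± 0.704, all overlapping one another. The 4 ligands, Notch4 and Hey2 were all below 0.25 on average, and Jag2 had no count in the 3 libraries. In control livers Notch2 at 4.64 ± 0.707 and Hes1 at 3.38 ± 0.115 led without overlap, and Hey2 was again last at 0.00906 ± 0.0097.

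**Figure D1:**
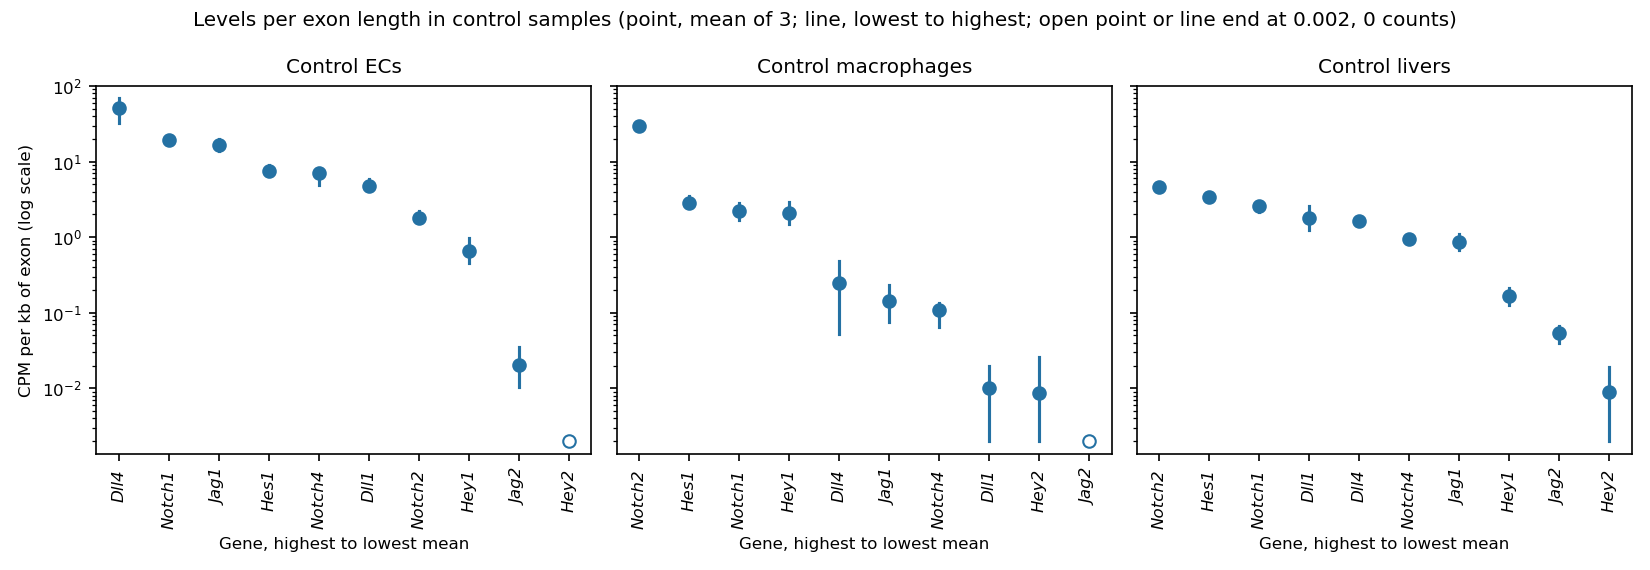
Levels of the 10 genes in control ECs, macrophages and livers, in CPM per kilobase of exon on a log axis, ordered by mean. Points are means of 3 libraries and lines run from the lowest to the highest; Dll4 leads in ECs at 51.2, Notch2 in macrophages at 29.8 and in livers at 4.64.

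Tested between control ECs and control macrophages, all 8 members with enough counts were called, where 36 percent of all 16263 genes tested were called. A gene was called, here and below, when edgeR's quasi-likelihood test gave a Benjamini-Hochberg adjusted p below 0.05 and the log2 fold change was above 1 or below -1. In 6 of them ECs were higher, and in Notch2 (log2 difference -4.23, SE 0.21, edgeR adjusted p = 1e-05) and Hey1 (-1.86, SE 0.39, edgeR adjusted p = 0.00626) macrophages were. The largest differences on the EC side were those of Dll1 at 8.5, Dll4 at 7.50 and Jag1 at 6.67, and the Dll1 value rests on 4, 7 and 0 counts in the macrophage libraries. The Hes1 call was lost when edgeR's glmTreat tested for more than a log2 fold change of 1 (adjusted p = 0.216). Against control livers, 7 of 9 members tested were called, where 59.9 percent of genes were: Dll4 (4.47), Jag1 (3.76), Notch1 (2.40), Notch4 (2.38) and Hey1 (1.5) were higher in ECs, and Notch2 (-1.88) and Jag2 (-1.88) were lower in them. The calls of Hey1 and Jag2 in the liver comparison each depended on single libraries. Hey1 was lost without control EC replicate 3 (1.11, edgeR adjusted p = 0.0743) or control liver replicate 1 or 3, and Jag2 without control EC replicate 1 (-1.56, edgeR adjusted p = 0.0946) or 2 or control liver replicate 1 or 3.

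The promoters of 8 of the 10 genes, with a pair of starts for Dll1, were in the RefSeq table for GRCm38.p6. The target genes Hey1 and Hes1 were not in it and were not searched. Each was searched, on both strands, over 260 bases, from 250 before to 10 after the RefSeq start, for 4 short motifs. The full RBPJ site, CGTGGGAA, was held by 0.654 percent of the 32851 promoters of this length in the table. Its core TGGGAA, which lies within it, was held by 22.4 percent. The GC-rich SMAD motif GGCGCC was held by 9.96 percent and the SMAD binding element, with the letters GTCTG, by 44 percent. Hey2, a classic Notch target, held the full RBPJ site at 2 places, at bases 44 to 51 (as the reverse complement) and at bases 246 to 253 of the sequence shown, and 3 promoters in the table held it at 2 or more places. None of the other 7 members searched held even its core, and for Hey1 and Hes1 this is not known. The SMAD binding element was found in Dll4, Jag1 and both windows of Dll1, and the GC-rich motif in 1 window of Dll1. Jag2, Notch1, Notch2 and Notch4 held none of the 4, which says only that these letters are not in this window. The sequences below are those of Hey2, the only target gene searched, and of 3 genes that were called in HSC-KO cells. They are read 5′ to 3′ in gene direction with RBPJ sites in capitals. Jag1 and Notch4 are cut where GENCODE starts the transcript further upstream, and the windows of Jag2 and Notch1 are not shown because they lie downstream of the GENCODE start. They lie at chr10:30842774-30843033 (minus strand), chr17:34564045-34564297 (plus strand), chr2:137116615-137116770 (minus strand) and chr3:98013288-98013547 (plus strand).
Hey2: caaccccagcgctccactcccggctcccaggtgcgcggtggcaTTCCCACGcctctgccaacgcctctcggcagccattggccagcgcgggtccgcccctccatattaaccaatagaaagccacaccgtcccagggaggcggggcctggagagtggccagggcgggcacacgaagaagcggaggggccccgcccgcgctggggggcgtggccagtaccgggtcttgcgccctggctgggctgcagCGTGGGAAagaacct
Notch4: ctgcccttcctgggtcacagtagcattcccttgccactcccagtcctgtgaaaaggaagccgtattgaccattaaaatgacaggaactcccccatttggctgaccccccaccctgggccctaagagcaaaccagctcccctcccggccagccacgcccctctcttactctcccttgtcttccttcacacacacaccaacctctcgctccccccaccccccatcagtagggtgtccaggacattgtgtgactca
Jag1: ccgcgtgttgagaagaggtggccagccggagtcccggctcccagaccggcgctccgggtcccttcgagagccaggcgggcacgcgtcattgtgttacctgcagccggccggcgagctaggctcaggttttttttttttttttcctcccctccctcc
Notch2: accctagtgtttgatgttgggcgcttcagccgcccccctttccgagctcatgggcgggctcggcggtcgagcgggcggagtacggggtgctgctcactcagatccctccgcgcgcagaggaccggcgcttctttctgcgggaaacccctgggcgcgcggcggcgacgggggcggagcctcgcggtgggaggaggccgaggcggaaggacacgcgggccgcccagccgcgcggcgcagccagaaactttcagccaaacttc

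**Figure D2:**
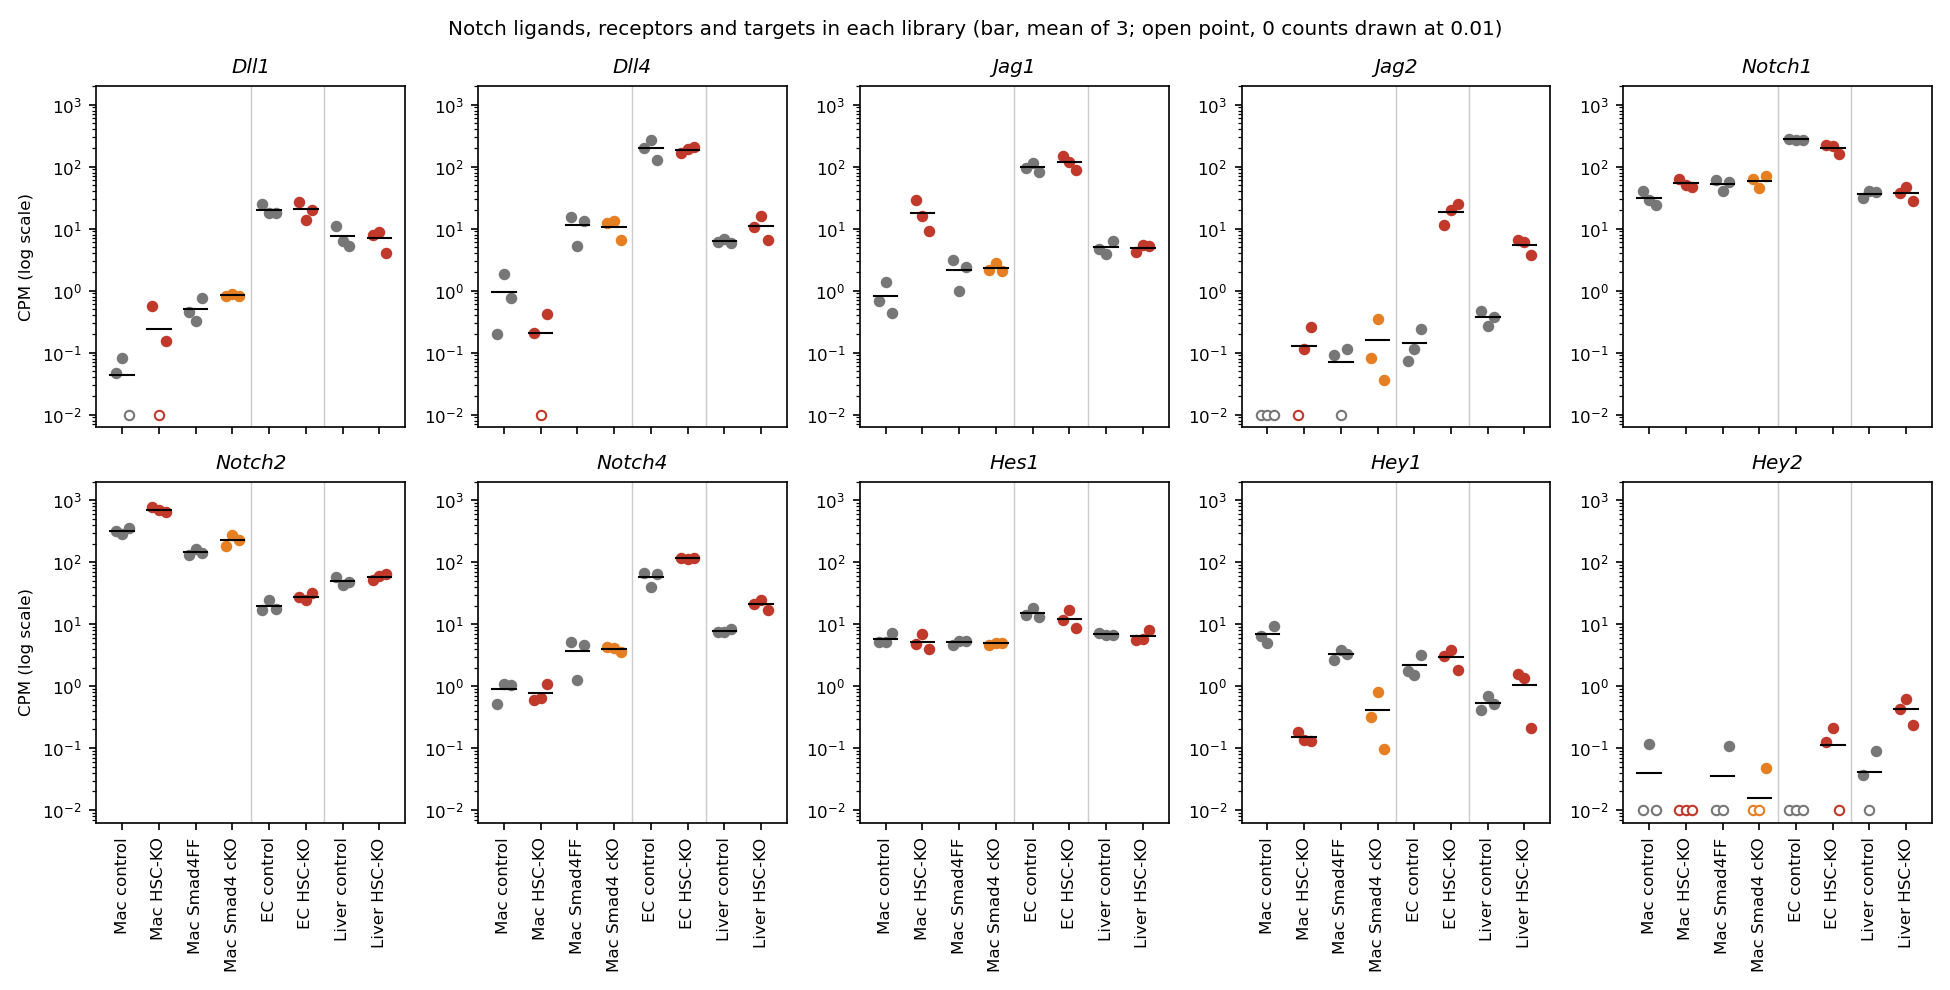
CPM of each Notch gene in every library on a log axis, for the 8 groups along the x axis. Points are libraries, bars are means of 3, and libraries with 0 counts are drawn open at 0.01; Jag2 rises above its controls in ECs and livers, and Jag1, Notch2 and Hey1 move apart from their controls in macrophages of HSC-KO mice.

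The next comparison asked which Notch genes differ in ECs when HSCs do not make GDF2 and BMP10. In ECs of HSC-KO mice 2 of the 9 members tested were called, Jag2 and Notch4, both higher, where 13.7 percent of the 16053 genes tested were called and 7.68 percent were called higher. The median log2 fold change of the 9 was 0.29 and that of all genes 0.00. Hey2 had too few counts to be tested.

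Jag2, a Jagged ligand (chr12:112907819-112929776, GRCm38), went from near absence to a level like that of Notch2. It stood at 0.0732, 0.113 and 0.244 CPM in the 3 control libraries, from 6, 7 and 18 counts. The HSC-KO libraries held 11.6, 19.9 and 24.8 CPM, from 1098 to 2025 counts. Every HSC-KO library lay far above every control. The log2 fold change was 7.02 (SE 0.51, 95% interval 5.84 to 8.20, edgeR adjusted p = 0.000157). Per length its mean of 2.70 ± 0.952 CPM per kilobase in HSC-KO ECs overlapped Notch2 at 2.58 ± 0.328 and the lower part of Dll1 at 4.83 ± 1.56, and lay under Jag1 at 20.3 ± 4.94 and Dll4 at 49.1 ± 4.92.

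The other ligands of ECs did not pass the test. Dll4 stood at 198, 267 and 127 CPM in controls and at 168, 194 and 205 CPM in HSC-KO ECs, with the HSC-KO libraries inside the control range (log2 fold change -0.06, 95% interval -0.66 to 0.54, edgeR adjusted p = 0.902). Jag1 stood at 95.1, 115 and 81.2 CPM and at 147, 119 and 89.6 CPM (0.29, 95% interval -0.20 to 0.78, edgeR adjusted p = 0.400). Dll1 stood at 17.6 to 24.8 CPM and at 13.9 to 27 CPM (0.02, 95% interval -0.59 to 0.63). For these 3 ligands the intervals hold changes of up to 0.78 upward and 0.66 downward on the log2 scale.

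Of the receptors, Notch4 (chr17:34564268-34588503), which is largely confined to endothelium, rose. Its control libraries held 66.9, 39.1 and 65.2 CPM and its HSC-KO libraries 117, 113 and 116 CPM. The HSC-KO libraries were close together and all above the controls, of which replicate 2 was the low one. The log2 fold change was 1.01 (SE 0.21, 95% interval 0.53 to 1.49, edgeR adjusted p = 0.0126), just above the limit of 1. Without control replicate 2 it was 0.80 (edgeR adjusted p = 0.01), which passes the test and not the limit on size, and with sex as a covariate it was 0.96.

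Notch1, the receptor of arterial ECs, and Notch2 moved in opposite directions without passing the test. Notch1 was at 279, 274 and 272 CPM in controls and 219, 215 and 163 CPM in HSC-KO ECs, all of them lower (log2 fold change -0.47, SE 0.15, edgeR adjusted p = 0.0702). Notch2 was at 17.1, 24.1 and 17.3 CPM and then 27.2, 24.7 and 31.7 CPM, all of them higher (0.52, SE 0.19, edgeR adjusted p = 0.0981). In ECs the groups did not overlap for 4 of the 9 members tested, where 40.4 percent of all genes tested did not overlap.

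Of the target genes of ECs, Hes1 and Hey1 did not pass the test and Hey2 was not tested. Hes1 held 14.1, 18.3 and 13.1 CPM in controls and 11.6, 16.7 and 8.72 CPM in HSC-KO ECs (log2 fold change -0.30, 95% interval -0.90 to 0.30, edgeR adjusted p = 0.484). Hey1 held 1.78, 1.5 and 3.2 CPM and then 3.07, 3.88 and 1.80 CPM (0.43, 95% interval -0.54 to 1.39, edgeR adjusted p = 0.539). Hey2 had 0, 0 and 0 counts in controls and 12, 15 and 0 counts in HSC-KO ECs. The markers of macrophages in the EC libraries summed to 272 to 364 CPM in controls and 68.4 to 110 CPM in HSC-KO mice, most of it from Mertk (200 to 311 CPM and 58.7 to 104 CPM), 7 of the 9 that were tested were lower, and Fcgr1 had no count in the HSC-KO libraries. The sum of the 12 EC markers itself was 27037 to 28888 CPM in control and 12732 to 14044 CPM in HSC-KO ECs, with Lyve1, a marker of sinusoidal ECs, at 621 to 727 CPM and 5.20 to 9.15 CPM, while 8 EC genes without the sinusoidal markers summed to 13014 to 13654 CPM and 10813 to 12183 CPM. Smooth muscle and pericyte markers summed to 24.9 to 26.5 CPM and 57.5 to 76.7 CPM, nearly all of it from Mylk (22.7 to 23.8 CPM and 54.7 to 71.9 CPM), the 1 of 5 tested that was called. Neutrophil and monocyte markers summed to 0.109 to 0.305 CPM and 62.2 to 77.1 CPM, nearly all of it from Ly6c2 (62.1 to 77.0 CPM in HSC-KO ECs), while S100a8, S100a9, Ly6g and Retnlg had no count in either group. HSC markers summed to 158 to 236 CPM and 121 to 157 CPM, without overlap, with 1 of 10 called, lower. Of 10 hepatocyte markers 3 were called, all lower, with sums of 58.1 to 109 CPM and 41.2 to 61.5 CPM. The part of other cells and of EC types in these sums and in the EC values was not tested.

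**Figure D3:**
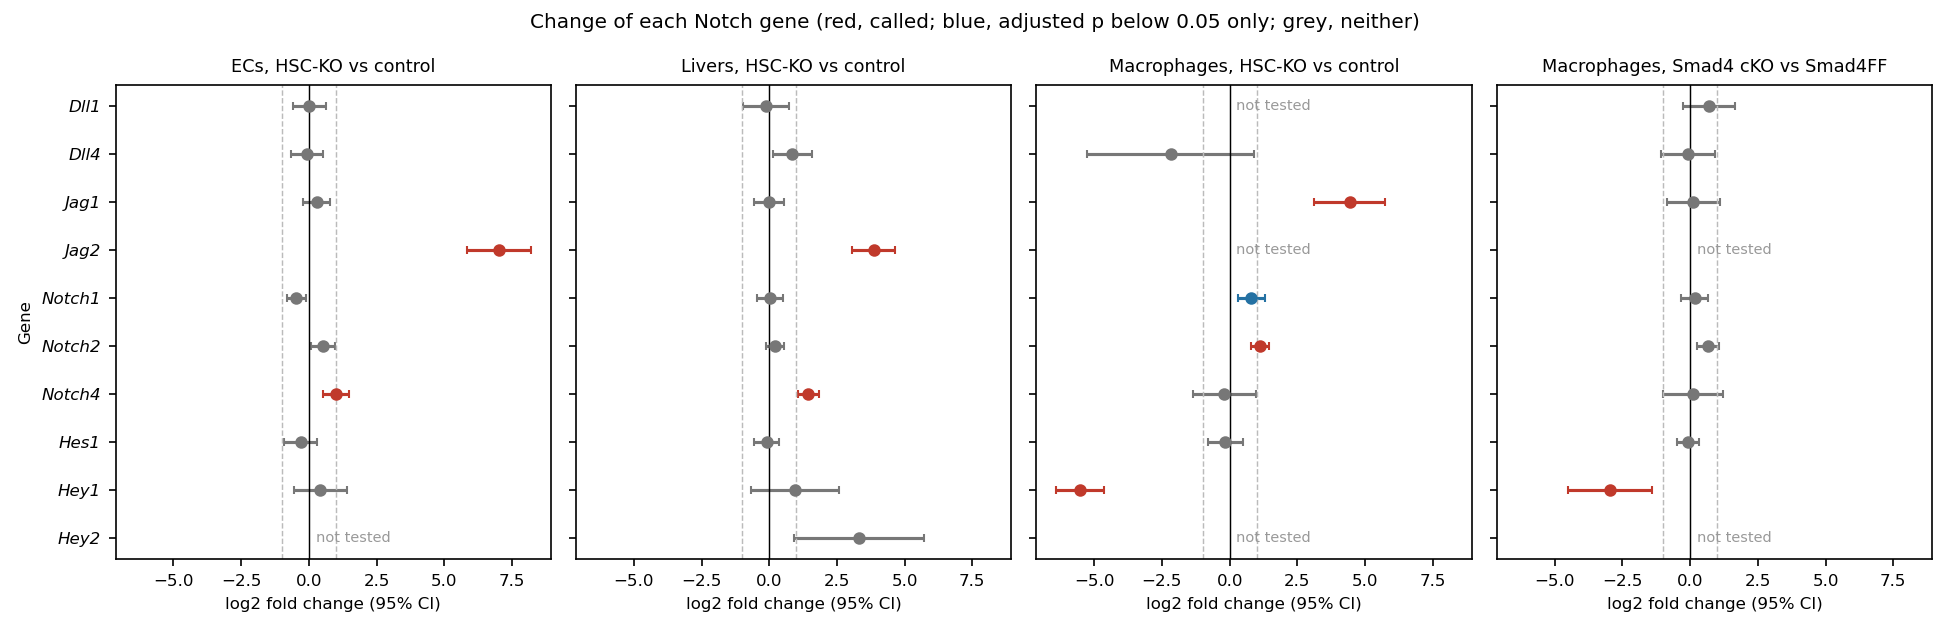
log2 fold change of each Notch gene with its 95% interval in the 4 comparisons. Red points were called, blue points passed the test without a 2-fold change, grey points did neither; Jag2 and Notch4 were called in ECs and livers, Jag1, Notch2 and Hey1 in HSC-KO macrophages and Hey1 in Smad4 cKO macrophages.

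In whole livers 2 of 10 members were called, again Jag2 and Notch4, both higher in HSC-KO mice, where 2.48 percent of the 17118 genes tested were called and 1.03 percent were called higher. The groups did not overlap for 3 of the 10, beside 19.7 percent of genes. In tissue, more cells of a type and more RNA per cell cannot be told apart. Jag2 stood at 0.462, 0.274 and 0.377 CPM in control livers and at 6.51, 5.98 and 3.82 CPM in HSC-KO livers, with no overlap (log2 fold change 3.86, SE 0.34, 95% interval 3.07 to 4.65, edgeR adjusted p = 0.00182). Notch4 stood at 7.34, 7.40 and 8.31 CPM and at 21.2, 24.6 and 16.8 CPM, again with no overlap (1.44, SE 0.17, 95% interval 1.05 to 1.83, edgeR adjusted p = 0.00586).

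The sum of the 12 EC markers was 503 to 635 CPM in control livers and 367 to 421 CPM in HSC-KO livers, and without the sinusoidal markers, as the sum of 8 EC genes, 308 to 385 CPM and 343 to 396 CPM. The part of EC number and EC type in the liver values of Jag2 and Notch4 was not tested. The 8 genes were chosen after the sinusoidal markers in the longer list, Stab2 and Lyve1 among them, were seen to be lower in HSC-KO ECs. HSC markers summed to 403 to 508 CPM in control and 660 to 729 CPM in HSC-KO livers and macrophage markers to 362 to 572 CPM and 148 to 284 CPM. Hepatocyte markers summed to 111032 to 135781 CPM and 141361 to 184431 CPM, cholangiocyte markers to 56.2 to 85.1 CPM and 26.4 to 36.6 CPM, and T, NK and B cell markers to 6.37 to 10.1 CPM and 1.52 to 4.18 CPM. None of these overlapped between the groups, and their part was not tested.

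Among the other members in livers, Hey2 was lowest in counts, and its fold change rests on controls near the floor of 3 counts. It had 4, 0 and 8 counts in controls and 32, 53 and 17 counts in HSC-KO livers, without overlap (log2 fold change 3.31, SE 1.03, edgeR adjusted p = 0.198, DESeq2 adjusted p = 0.0335). Dll4 stood at 6.10, 6.75 and 5.78 CPM in controls and at 10.8, 16.2 and 6.49 CPM in HSC-KO livers, replicate 3 being the low one (0.84, SE 0.31, edgeR adjusted p = 0.285). Hey1 was low in the same library, at 0.209 CPM against 1.58 and 1.33 CPM in the other two, and controls held 0.407 to 0.690 CPM. In that library Xist, the transcript of the inactive X chromosome, was at 0.167 CPM, against 303 to 708 CPM in the other 5 liver libraries. Without it Dll4 was called at 1.12 (edgeR adjusted p = 0.0477). Notch1, Notch2, Dll1, Jag1 and Hes1 overlapped between the groups, with log2 fold changes from -0.11 to 0.22.

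The same question was put to the macrophages of HSC-KO mice. Of 7 members tested 3 were called, Jag1 and Notch2 higher and Hey1 lower, where 11.7 percent of the 16337 genes tested were called. Dll1, Jag2 and Hey2 had too few counts. The median log2 fold change of the 7 was -0.16 and that of all genes 0.04.

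Jag1 (chr2:137081456-137116644) was the ligand that rose. Control macrophages held 0.674, 1.35 and 0.437 CPM, from 57, 115 and 25 counts, and HSC-KO macrophages 28.7, 15.8 and 9.10 CPM, from 2515, 1510 and 831 counts. The HSC-KO libraries were spread widely, and the lowest of them still lay well above the highest control. The log2 fold change was 4.42 (SE 0.57, 95% interval 3.10 to 5.75, edgeR adjusted p = 0.0018). Its level remained under that of ECs, where control libraries held 81.2 to 115 CPM.

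Notch2 (chr3:98013527-98150361), the main Notch receptor of these macrophages, rose from a high level. It held 322, 284 and 358 CPM in controls and 766, 690.3 and 645 CPM in HSC-KO macrophages, with no overlap (log2 fold change 1.12, SE 0.14, 95% interval 0.80 to 1.44, edgeR adjusted p = 0.00148). The call was lost with glmTreat (edgeR adjusted p = 0.554) and with the level of EC genes as a covariate (0.85, edgeR adjusted p = 0.549, with 12 EC markers and 0.97, edgeR adjusted p = 0.0841, with 8). GENCODE places another entry, Gm42820, on the same strand over 541 of its exon bases, where reads could be counted for either. That entry had 57 to 170 counts in controls and 219 to 345 counts in HSC-KO macrophages, against 20481 to 67242 counts of Notch2.

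Notch1 passed the test without reaching a 2-fold change. Its libraries held 40.7, 28.7 and 24.1 CPM in controls and 63.4, 51.5 and 47.7 CPM in HSC-KO macrophages, all of them higher (log2 fold change 0.80, SE 0.21, edgeR adjusted p = 0.0361). Over the alternatives run its log2 fold change ranged from 0.11 to 1.04. With single libraries left out it ranged from 0.64 to 1.04, and edgeR's adjusted p reached 0.120. By adjusted p alone 4 of the 7 members passed, where 19.2 percent of genes did, and the groups did not overlap for the same number, beside 40.3 percent of genes. Notch4 held 0.520 to 1.09 CPM and 0.604 to 1.07 CPM (-0.19, 95% interval -1.35 to 0.97). Dll4 held 0.201 to 1.86 CPM and 0 to 0.416 CPM, with the groups overlapping (-2.18, 95% interval -5.26 to 0.89, edgeR adjusted p = 0.299).

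Hey1 (chr3:8663359-8667256), the Hey repressor, fell almost to the floor. Control macrophages held 6.44, 4.90 and 9.42 CPM, from 545, 416 and 539 counts, and HSC-KO macrophages 0.182, 0.136 and 0.131 CPM, from 16, 13 and 12 counts. The groups were far apart and the HSC-KO libraries close together. The log2 fold change was -5.51 (SE 0.38, 95% interval -6.40 to -4.62, edgeR adjusted p = 0.000141). Hes1, the other member among the target genes with enough counts, held 5.14, 5.11 and 7.16 CPM and then 4.70, 6.89 and 4.02 CPM, with the groups overlapping (-0.16, 95% interval -0.79 to 0.48, edgeR adjusted p = 0.739).

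Macrophages of Smad4 cKO mice were compared with Smad4FF macrophages to ask what the loss of SMAD4 within blood cells does. Of 8 members tested 1 was called, Hey1, which was lower, where 5.43 percent of the 17517 genes tested were called and 2.67 percent were called lower. The groups did not overlap for 3 of the 8, beside 29.4 percent of genes. Hey1 held 2.63, 3.86 and 3.27 CPM in Smad4FF and 0.319, 0.818 and 0.0955 CPM in Smad4 cKO macrophages, all of them lower but spread over 8 to 95 counts. The log2 fold change was -2.96 (SE 0.66, 95% interval -4.51 to -1.41, edgeR adjusted p = 0.0377). The call was lost without Smad4 cKO replicate 1 (edgeR adjusted p = 0.144) and without Smad4FF replicate 1 (0.0787), 2 (0.106) or 3 (0.118), each time with the fold change between -3.11 and -2.81.

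Notch2 held 131, 162 and 140.5 CPM in Smad4FF and 183, 278 and 228 CPM in Smad4 cKO macrophages, without overlap, and did not pass the test (log2 fold change 0.67, SE 0.17, edgeR adjusted p = 0.062). Jag1 held 3.11, 0.974 and 2.40 CPM and 2.15, 2.84 and 2.07 CPM, with the Smad4 cKO libraries inside the range of the controls (0.12, 95% interval -0.85 to 1.09, edgeR adjusted p = 0.903). Hes1 held 4.59, 5.41 and 5.32 CPM and 4.68, 4.98 and 5.03 CPM, with the groups overlapping (-0.06, 95% interval -0.47 to 0.35). Notch1, Notch4 and Dll4 overlapped between the groups, Dll1 did not overlap (0.321 to 0.765 CPM against 0.814 to 0.878 CPM) but gave an edgeR adjusted p of 0.387, and Jag2 and Hey2 had too few counts.

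EC genes were present in the macrophage libraries. The sum of the 12 EC markers was 278 to 715 CPM in control macrophages, or 0.986 to 2.54 percent of the control EC mean, and 32.5 to 109 CPM in HSC-KO macrophages, without overlap. In Smad4FF macrophages it was 1128 to 3705 CPM and in Smad4 cKO macrophages 2848 to 3511 CPM, inside the range of their controls. With this sum as a covariate no member was called in either comparison: in HSC-KO macrophages Hey1 gave -5.92 (edgeR adjusted p = 0.0671), Jag1 4.24 (0.428) and Notch2 0.85 (0.549), in a fit that called 73 genes in all in place of 1904. With the 8-gene sum, whose groups overlapped, Hey1 was called (-5.67, edgeR adjusted p = 0.00387), and Jag1 (3.97, edgeR adjusted p = 0.0859) and Notch2 (0.97, edgeR adjusted p = 0.0841) were not, in a fit with 726 calls. Parts of other marker lists moved as well. T, NK and B cell markers summed to 15.3 to 30.6 CPM in control and 49.7 to 168 CPM in HSC-KO macrophages, with 4 of 8 higher, Cd3g, Nkg7, Klrb1c and Trbc2. Neutrophil and monocyte markers summed to 6.99 to 11.2 CPM and 38.2 to 87.7 CPM, most of it from Ccr2 (4.07 to 9.49 CPM and 33.2 to 84.1 CPM). In that list 2 of 4 tested were called, Ccr2 and Ly6c2, and the gate was Ly6C-. The macrophage markers themselves summed to 33890 to 35307 CPM in control and 28319 to 31351 CPM in HSC-KO macrophages, and to 39207 to 46339 CPM in Smad4FF and 25544 to 32682 CPM in Smad4 cKO macrophages, without overlap in either set. In the Smad4 set cholangiocyte markers (4.64 to 5.94 CPM and 10.8 to 23.5 CPM) and HSC markers (180 to 214 CPM and 122 to 172 CPM) did not overlap either. The part of these genes in the member values was not tested.

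The share of the 8 EC genes in each macrophage library, times the mean level of a gene in control ECs, gives the level that EC RNA at that share would carry. In the Smad4FF and Smad4 cKO libraries this value was 6.71 to 24.5 CPM for Dll4, 1.94 to 7.09 CPM for Notch4, 3.31 to 12.1 CPM for Jag1 and 0.686 to 2.50 CPM for Dll1, above the measured level in each of the 6 libraries for all 4 genes. For Notch1 it was 9.37 to 34.1 CPM, where 40.9 to 69.9 CPM were measured. So for Dll4, Notch4, Jag1 and Dll1 in the Smad4 set, RNA of macrophages and RNA of ECs cannot be told apart. In HSC-KO macrophages it was 0.0888 to 0.411 CPM for Jag1, far under the 9.10 to 28.7 CPM measured, and in control macrophages 0.366 to 1.71 CPM, above the measured level in 2 of the 3 libraries. For Hey1 it was at most 0.0381 CPM in control macrophages, where 4.90 to 9.42 CPM were measured, and for Notch2 it was at most 2.42 CPM in any macrophage library, where at least 131 CPM were measured. In Smad4 cKO macrophages it was 0.203 to 0.256 CPM for Hey1, above the 0.0955 CPM of replicate 3 and under the other two libraries.

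**Figure D4:**
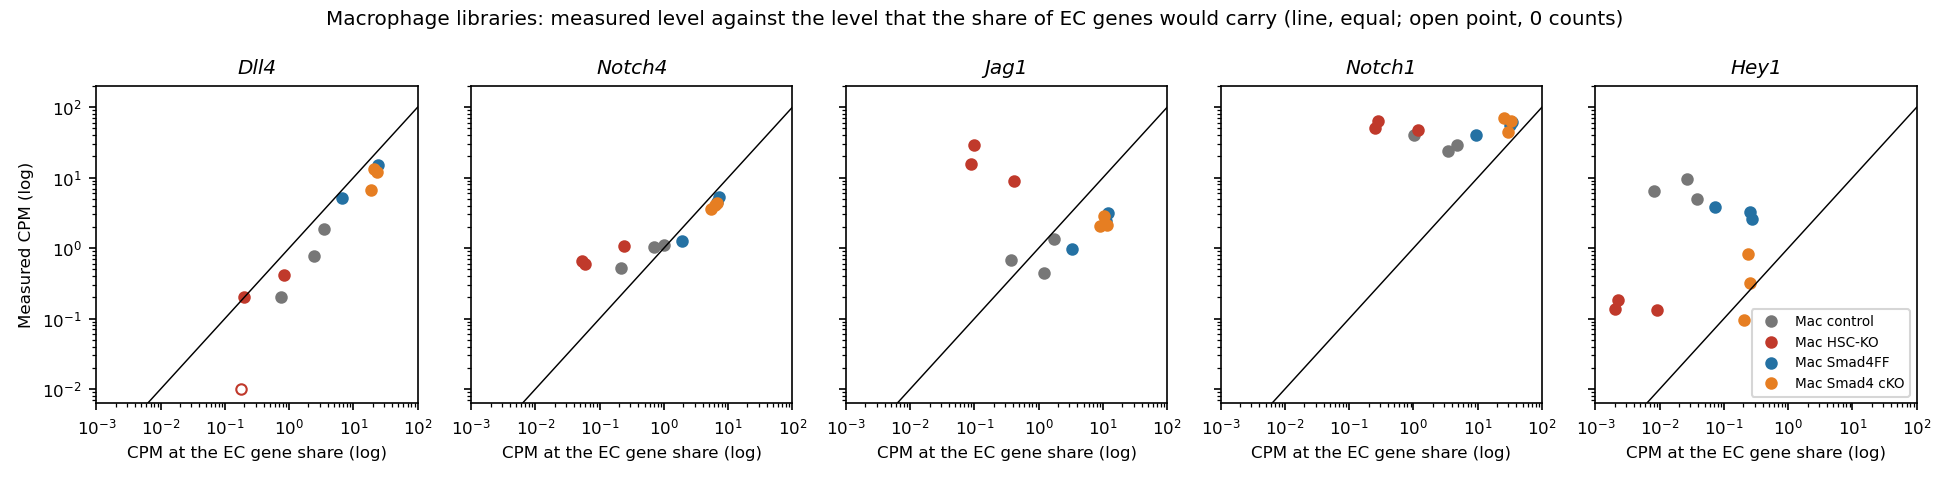
Measured CPM of 5 Notch genes in the 12 macrophage libraries against the CPM that the library's share of 8 EC genes would carry, both on log axes, with the line of equality. Dll4 lies near or under the line in every group, Jag1 lies far above it in the 3 HSC-KO libraries and under it in the Smad4 set, and Hey1 lies above it in control and Smad4FF libraries.

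The responses were then tested against each other, as differences of log2 fold changes in 1 fit. Between ECs and macrophages of HSC-KO mice 3 of 9 members tested responded differently, where 12.3 percent of 18325 genes did. Hey1 differed by 5.94 (SE 0.59, edgeR adjusted p = 9.35e-05), being lower in HSC-KO macrophages and not in HSC-KO ECs. Jag1 differed by -4.14 (SE 0.63, edgeR adjusted p = 0.00126), higher in macrophages and within its spread in ECs. Notch1 differed by -1.27 (SE 0.28, edgeR adjusted p = 0.0118), with opposite signs in the 2 cell types. Notch2, higher in both without overlap, gave -0.62 (SE 0.24, edgeR adjusted p = 0.113). The genes called in ECs were not shown to respond differently in macrophages, with Jag2 at 0.56 (95% interval -2.51 to 3.62, edgeR adjusted p = 0.869) and Notch4 at 1.19 (95% interval 0.25 to 2.13, edgeR adjusted p = 0.0855).

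Between ECs and livers 1 of 10 members responded differently, where 6.48 percent of genes did. Jag2 rose more in ECs than in livers, by 3.2 (SE 0.60, edgeR adjusted p = 0.00765). Control livers held more Jag2 than control ECs, with means of 0.371 and 0.144 CPM. Livers hold ECs among other cells, and their mice were 12 weeks old, against 8 to 10 weeks. The part of these in the difference was not tested. For Notch4 the difference was -0.39 (95% interval -0.99 to 0.22, edgeR adjusted p = 0.479).

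Between HSC-KO and Smad4 cKO macrophages 1 of 9 members responded differently, where 2.68 percent of genes did. Jag1 rose in HSC-KO macrophages and not in Smad4 cKO macrophages, a difference of 4.35 (SE 0.74, edgeR adjusted p = 0.0112). Hey1, lower in both, differed by -2.50 (SE 0.79, edgeR adjusted p = 0.125) and Notch2 by 0.50 (SE 0.22, edgeR adjusted p = 0.292). The experiments used different mice and different controls, and Jag1 in the Smad4 set lay under the level that EC RNA would carry.

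Around the 10 genes, 54 other genes of the pathway were followed in 4 lists. In ECs of HSC-KO mice 6 of the 46 tested were called, 5 higher and 1 lower, in macrophages of HSC-KO mice 6 of 45, in Smad4 cKO macrophages 5 of 47 and in livers 1 of 45, beside 13.7, 11.7, 5.43 and 2.48 percent of all genes in these comparisons. Their median log2 fold changes were 0.09, 0.12, 0.05 and 0.07. Neurl1b, an E3 ubiquitin ligase of the Neuralized family, which helps ligands to be taken up, was called in all 4, but in livers the call was lost when any 1 library other than HSC-KO replicate 3 was left out and with library size alone, a filter of 1 count, glmTreat or the replicate block. Its log2 fold change was 3.30 in ECs (2.49 to 5.42 CPM in controls, 31.9 to 39.3 CPM in HSC-KO), 1.91 in HSC-KO macrophages, 1.40 in Smad4 cKO macrophages and 1.57 in livers (edgeR adjusted p = 0.000443, 0.00117, 0.0256 and 0.0408).

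In the list of maturation, ligand uptake and cleavage, 3 of 20 were called in ECs, a share near the 13.7 percent of all genes. Besides Neurl1b, the sugar transferase Mfng, which modifies Notch receptors, rose by 1.40 (93.4 to 96.9 CPM in controls, 214 to 272 CPM in HSC-KO) and Psen2, a catalytic subunit of gamma-secretase, fell by 2.54 (191 to 249 CPM and then 24.3 to 63.6 CPM). In macrophages Adam10, the protease of the first cut, fell by 1.37 in HSC-KO and by 1.13 in Smad4 cKO mice, and Mfng rose by 1.01 in HSC-KO macrophages. The list of the nuclear complex held Maml2 and Spen, a coactivator and a corepressor, each higher by 1.20 in ECs. In macrophages it held Dtx4, a Deltex ubiquitin ligase, higher by 2.97 in HSC-KO and 2.49 in Smad4 cKO mice, Rbpj itself, higher by 1.95 in HSC-KO macrophages (9.33 to 17.1 CPM and then 44.3 to 63.1 CPM), and Maml3, higher by 1.13 in Smad4 cKO macrophages.

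In the list of other Hes, Hey and related genes 1 of 6 tested was called in each macrophage comparison. Beside it stood 11.7 percent of all genes in HSC-KO and 5.43 percent in Smad4 cKO macrophages. The gene was Bhlhe41, a repressor related to the Hes and Hey proteins, and whether Notch drives it in these cells was not tested. It held 0.856 to 1.68 CPM in control and 89.1 to 151 CPM in HSC-KO macrophages (log2 fold change 6.57, edgeR adjusted p = 4.93e-05), and 0.247 to 1.34 CPM in Smad4FF and 21.6 to 26.5 CPM in Smad4 cKO macrophages (4.74, edgeR adjusted p = 0.00283). None of the 5 tested in ECs or the 5 tested in livers was called, beside 13.7 and 2.48 percent. Among other receptors and ligands Dlk2, a Delta-like protein without the domain that binds Notch in trans, had no count in control ECs and 180, 108 and 213 counts in HSC-KO ECs, at least 31-fold higher in CPM than the floor of 3 counts in the shallowest control library.

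**Figure D5:**
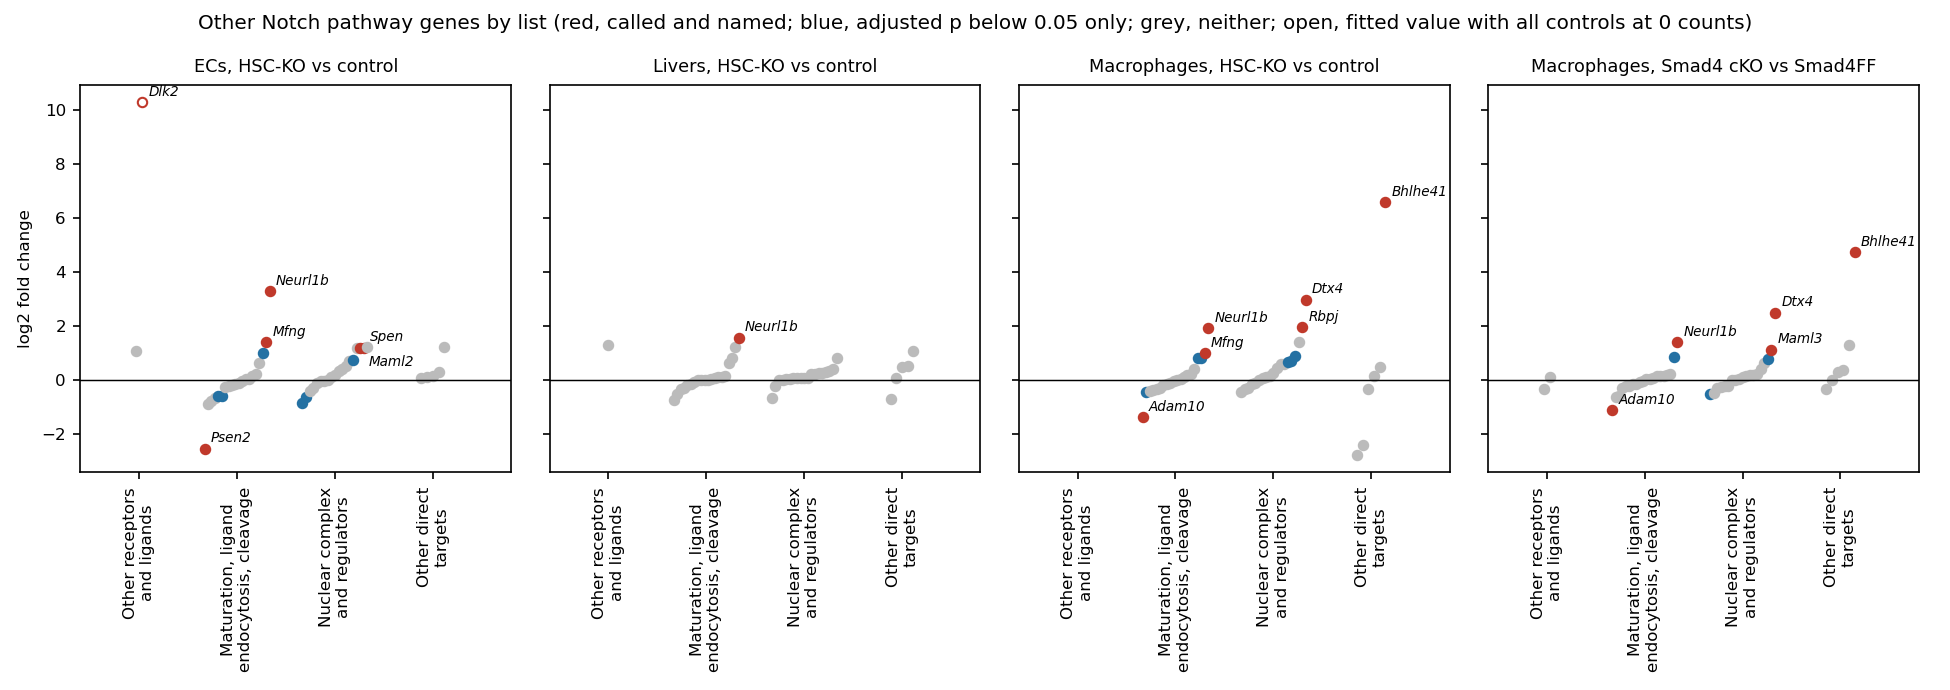
log2 fold changes of the other Notch pathway genes tested, in 4 lists along the x axis, for the 4 comparisons. Called genes are red and named, genes that passed the test without a 2-fold change are blue, and Dlk2 is open because its control libraries had no count; Neurl1b is named in all 4 panels.

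Genes of arteries, veins and the BMP pathway were followed beside the Notch genes. Acvrl1, which encodes ALK1, held 56.1 to 63.4 CPM in control and 159 to 235 CPM in HSC-KO ECs (log2 fold change 1.73, edgeR adjusted p = 0.000539). Of 16 arterial EC genes tested in ECs 5 rose and 1 fell, beside 13.7 percent of all genes called. Those that rose included Sema3g, a secreted semaphorin of arteries (log2 fold change 5.75), Alpl (4.13), Eln, which encodes elastin (3.41), and Fbln5 (3.27). The one that fell was the connexin Gja4 (-2.06, 355 to 801 CPM in control and 70.4 to 239 CPM in HSC-KO ECs), named after its values were seen. In livers 2 of 16 rose, Sema3g (4.27) and Fbln5 (1.79), beside 2.48 percent of all genes called. Of 8 venous EC genes in ECs 2 rose and 2 fell, beside 13.7 percent of all genes called. Those that rose were Aplnr (11.68) and Emcn (3.55), which the study counts as markers of continuous ECs. Those that fell were Ackr1 (-3.70) and Nr2f2, a transcription factor of veins (-1.44). Of the BMP and SMAD target genes tested 5 of 9 fell in ECs and 1 rose, beside 13.7 percent of all genes called. Those that fell included Smad6 (-3.01), Id2 (-2.28), Smad7 (-1.80) and Id4 (-1.34), and Id1 and Id3 were not among these 4. In HSC-KO macrophages 6 of 8 fell, among them Id3 (-8.23) and Id1 (-7.56), beside 11.7 percent of all genes called. In Smad4 cKO macrophages 5 of 9 fell, beside 5.43 percent. In livers 1 of 10 fell, Smad6 (-2.14), beside 2.48 percent, with a median over the 10 of 0.04. Of 14 KC identity genes 12 were lower in HSC-KO and 11 in Smad4 cKO macrophages, beside the same 11.7 and 5.43 percent of genes called.

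The genes whose levels followed the called members most closely over all 24 libraries, by Pearson's r of log2 CPM among 20828 genes, are given as a description, since cell type, library and depth are shared by these points. For Jag2 they were Arhgef28 (0.94), Usp43 (0.93) and Mcf2l (0.92), for Notch4 Smtn (0.98), Col4a1 (0.98) and Dock9 (0.98), for Jag1 Clic4 (0.95), Cpd (0.94) and Zfp647 (0.94), for Notch2 Prkcd (0.98), Ptpro (0.97) and Myo9b (0.97), and for Hey1 Zfp532 (0.89), Tspan15 (0.87) and St3gal4 (0.84). Hey1 had the lowest leading value of the 5.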

How the data were processed

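The authors deposited 4 tables of raw read counts per gene. Per the submitters' processing notes they used FastQC, HISAT2, featureCounts and DESeq2 on mouse build mm10 (GRCm38), and versions, annotation release and strand setting are not given in the sources used here. Groups came from the labels. CPM used edgeR's TMM library sizes within each table, and exon lengths came from GENCODE vM21. Each comparison was fitted with edgeR 4.0.16 (R 4.3.3), quasi-likelihood test, on its own groups, after filterByExpr (minimum count 10, minimum total 15), with Benjamini-Hochberg adjustment over all genes tested. A gene was called at adjusted p below 0.05 and absolute log2 fold change above 1. Comparisons across tables used 1 joint fit over 48574 symbols, and levels across tables were normalized separately. Depth, 60911527 to 110879155 counts a library, limits precision under about 10 counts. Members and lists were chosen with earlier results of these data known. Named list genes were called genes whose log2 CPM averaged 0 or more, at most 4 a list and comparison by size of change, plus the deleted genes and Acvrl1. Likeness gives the 3 genes of highest Pearson r per called member. Alternatives were DESeq2 1.42.0, other scalings and filters, glmTreat, limma 3.58.1, covariates, the replicate block and leaving out each library. Scripts were tested on simulated data.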

Additional observations from a re-analysis of the deposited data

Results flagged for a closer look

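By edgeR tests of the difference itself, 4 genes responded differently between ECs and macrophages, ECs and whole livers, or HSC-KO and Smad4 cKO macrophages. Between ECs and macrophages the log2 fold change of Notch1 differed by -1.27 (edgeR adjusted p = 0.0118), that of Jag1 by -4.14 (edgeR adjusted p = 0.00126) and that of Hey1 by 5.94 (edgeR adjusted p = 9.35e-05). Between ECs and livers that of Jag2 differed by 3.2 (edgeR adjusted p = 0.00765). Between HSC-KO and Smad4 cKO macrophages that of Jag1 differed by 4.35 (edgeR adjusted p = 0.0112). The causes were not tested.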

How the results depend on the processing

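Jag2 in ECs (log2 fold change 6.68 to 7.66 over all alternatives that tested it) and Jag2 in livers kept their calls in every alternative run. Counts of members called moved as follows. In HSC-KO macrophages 3 became 0 with the EC marker sum as a covariate and 1 with the 8-gene sum, a covariate chosen after seeing the data, 2 with glmTreat (Notch2 lost, adjusted p = 0.554) and 4 without a minimum fold change, and ranged from 3 to 4 when libraries were left out. In Smad4 cKO macrophages 1 became 0 with at least 10 counts in every library (Hey1 was then untested), with glmTreat and with either covariate, and ranged from 0 to 1 when libraries were left out. In ECs 2 became 1 with at least 10 counts in every library (Jag2 untested), with glmTreat and with sex as a covariate, and ranged from 1 to 2. In livers 2 became 1 with glmTreat and 3 with DESeq2 (Hey2 added) or with sex as a covariate (Dll4 added), and ranged from 2 to 3. For EC against macrophage responses 3 became 2 with glmTreat (Notch1 lost) and 4 with DESeq2 (Notch4 added), and ranged from 3 to 4, the 4 being without control macrophage replicate 1 or HSC-KO macrophage replicate 3 (Notch4 added). For EC against liver responses 1 became 0 with at least 10 counts in every library (Jag2 untested), and for HSC-KO against Smad4 cKO responses 1 became 2 with DESeq2 (Hey1 added) and ranged from 1 to 2, the 2 being without Smad4 cKO replicate 3. For control ECs against macrophages 8 became 7 with glmTreat (Hes1 lost, adjusted p = 0.216) or at least 10 counts in every library and 9 with a filter of 1 count. For control ECs against livers 7 became 5 with glmTreat or the replicate block (Hey1 and Jag2 lost), 6 with a filter of 1 count or 10 counts in every library and 9 without a minimum fold change, and ranged from 5 to 7. Dll1 was added there with library size alone (1.23, Jag2 lost) and without control liver replicate 1.

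Of the 54 pathway genes, 6 in HSC-KO macrophages became 12 without a minimum fold change and 1 with the EC marker sum. In Smad4 cKO macrophages 5 became 2 with glmTreat, 8 without a minimum fold change and 3 with either covariate (3 to 5 with libraries left out). In ECs 6 became 12 without a minimum fold change. In livers 1 became 2 with DESeq2 and 0 with glmTreat, the replicate block, library size alone or a filter of 1 count (0 to 1 with libraries left out).

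Directions reversed only for values that were not called. With the EC marker sum Notch4 and Dll4 in HSC-KO macrophages gave 1.59 and 4.74 and with the 8-gene sum 0.93 and 1.03. In Smad4 cKO macrophages Notch4 and Jag1 gave -0.11 and -0.082 with the EC marker sum and -0.11 and -0.077 with the 8-gene sum. With library size alone, which moved the all-gene median to 0.30 in ECs, 0.19 in Smad4 cKO macrophages and -0.12 in livers, Dll4 and Hes1 in Smad4 cKO macrophages gave 0.074 and 0.094, Dll4 in ECs 0.24, Notch1 in livers -0.080, and Hes1 gave 0.053 for EC against macrophage and 0.19 for EC against liver responses. Dll1 gave -0.016 in ECs with the replicate block, and with sex as a covariate -0.21 in ECs and 0.16 in livers. With libraries left out, values ran from -0.41 to 0.021 for Hes1 in HSC-KO macrophages, and in Smad4 cKO macrophages from -0.24 to 0.46 for Jag1, -0.43 to 0.19 for Dll4, -0.00055 to 0.34 for Notch1 and -0.31 to 0.44 for Notch4. They ran from -0.24 to 0.23 for Dll1 and -0.30 to 0.22 for Dll4 in ECs, and in livers from -0.17 to 0.20 for Notch1, -0.32 to 0.28 for Dll1, -0.16 to 0.21 for Jag1 and -0.28 to 0.0047 for Hes1. For response differences they ran from -0.43 to 0.10 for Hes1 and -0.0091 to 1.65 for Jag2 (EC against macrophage), -0.22 to 0.38 for Dll1 and -0.45 to 0.027 for Hes1 (EC against liver), and -0.30 to 0.11 for Hes1 and -0.67 to 0.078 for Notch4 (HSC-KO against Smad4 cKO). The causes were not tested.

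Whether replicate numbers pair the samples cannot be settled with 3 libraries a group. Same-numbered libraries correlated by -0.11 to 0.16 in their deviations from group means. In ECs these values were 0.103, 0.117 and 0.0334, each higher than the values of the same libraries with other numbers. With the replicate block, members called stayed at 3, 1, 2 and 2 in HSC-KO macrophages, Smad4 cKO macrophages, ECs and livers, pathway genes were 6, 5, 7 and 0, and members differing were 4 for EC against macrophage responses, 1 and 1 for the other responses, 8 for control ECs against macrophages and 5 against livers. Treating the 3 shared mice as a random block left 3 members differing. Depth limits Hey2, Jag2 and Dll1 in macrophages of HSC-KO mice and their controls, where no library held more than 50 counts.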
